A study of Homo sapiens with 8 samples.

Results

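The genes of glycolysis and glucose handling were examined on 8 Affymetrix arrays of NB4, a cell line from a human acute promyelocytic leukaemia. The list held 34 genes, from glucose uptake through the glycolytic enzymes to lactate, pyruvate entry and glycogen. A gene was taken where the array annotation tied a probe set to that gene alone, and it was then read from the brightest such probe set by its mean over all arrays. In this way 31 of the 34 genes were found among 18132 genes, and 30 of them lay above the low-signal filter that 12845 genes passed. PFKFB2, with a mean of 5.67 log2 against a filter of 5.83, is given as levels only. SLC2A3, SLC16A1 and SLC16A3 had no probe set of their own in the annotation used and are not analysed here.

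The cells carried 1 of 3 lentiviral short hairpin RNAs against CDK2, a kinase of the cell cycle, named shCDK2 #1, #3 and #10, or a scrambled hairpin as the control. All groups were transduced at a multiplicity of infection of 10 and sampled after 2 days, which the labels call an early differentiation stage, or after 5 days, called a late one. No differentiating agent and no selection of transduced cells are given in the sources used here. There was 1 array per construct and day, so the groups were 3 hairpin arrays at day 2, 3 hairpin arrays at day 5, and 1 scramble array at each day. The labels do not say whether the samples came from separate cultures, so p-values measure the spread between these samples, which may be technical. For each hairpin against scramble or another hairpin, the 2 days served as repeats. The spread there was how unevenly constructs differed between days. For the comparisons by day it was the spread between the 3 hairpins. In such bulk samples, fewer cells expressing a gene and less RNA per cell cannot be told apart.

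The targeted gene did not follow the labels on every array. By its brightest probe set as used for every gene, CDK2 stood at 39.9% of the same-day scramble signal in #1, 95.03% in #3 and 33.95% in #10 at day 2. At day 5 it stood at 81.1%, 72.3% and 92.9% in the same order, and the scramble array of day 5 itself was at 53.2% of the scramble array of day 2. The other 2 probe sets of CDK2 put the array labelled #3 at day 2 at 108.1% and 80.51% of scramble, #1 at 79.68% and 28.06%, and #10 at 71.66% and 26.59%. At day 5 they gave 88.12% and 73.95% in #1, 81.25% and 76.39% in #3, and 85.7% and 97.5% in #10, and put scramble at day 5 at 100.9% and 39.46% of scramble at day 2. By 2 of the 3 probe sets, then, the array labelled scramble at day 5 had low CDK2, and by all 3 the array labelled shCDK2 #3 at day 2 kept most of the scramble signal. Counts of called genes against scramble and between hairpins are therefore given with and without these 2 arrays. Without them scramble is left at day 2 alone and #3 at day 5 alone. Hairpin #3 against scramble then sets a day 5 array against a day 2 array, with the day effect taken from #1 and #10. The residual spread also comes from #1 and #10 alone, so calls of that fit are not a cleaner form of the same comparison. Array medians lay between 6.304 and 6.427 log2, and arrays correlated with each other at 0.964 to 0.994 over all probe sets. As for the line itself, MPO, the peroxidase of promyelocyte granules, read 13.37 to 14.39 log2 over the 8 arrays, while ELANE, the neutrophil elastase of the same granules, read 5.83 to 6.35.

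Glycolysis splits glucose into pyruvate in the cytosol, with net gain of ATP and NADH. Hexokinase and phosphofructokinase commit the sugar to the pathway, the PFKFB enzymes set the level of fructose 2,6-bisphosphate, which activates phosphofructokinase, and lactate dehydrogenase regenerates NAD+ from pyruvate. Pyruvate dehydrogenase kinases hold pyruvate back from the mitochondria, and glycogen stores glucose for later use. Neutrophils and their precursors are known to rely heavily on glycolysis, and many genes of the pathway are known targets of the hypoxia-inducible factors and of MYC in human cells.

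Those factors bind short DNA cores, ACGTG or GCGTG for the hypoxia-inducible factors and CACGTG for MYC and MAX, so the windows around the starts of called genes were searched for these letters. Windows ran from 250 bases before to 50 bases after the start, in the RefSeq promoter table of build GRCh38.p14. The table held 29 of the 31 genes, and lacked PFKFB2 and PPP1R3B. The 3 genes that rose and have a single start in the table are shown 5′ to 3′ on the gene's strand, with each ACGTG or GCGTG on either strand in capitals. They are ALDOC at chr17:28576846-28577145 (minus strand), ENO2 at chr12:6914330-6914629 (plus strand) and PFKFB4 at chr3:48556754-48557053 (minus strand).
ALDOC: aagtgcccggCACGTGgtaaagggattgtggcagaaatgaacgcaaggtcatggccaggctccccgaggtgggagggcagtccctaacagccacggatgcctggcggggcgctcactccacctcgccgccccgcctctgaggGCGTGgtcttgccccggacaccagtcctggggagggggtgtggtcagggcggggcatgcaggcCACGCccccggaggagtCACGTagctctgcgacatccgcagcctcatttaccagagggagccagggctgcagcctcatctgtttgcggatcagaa
ENO2: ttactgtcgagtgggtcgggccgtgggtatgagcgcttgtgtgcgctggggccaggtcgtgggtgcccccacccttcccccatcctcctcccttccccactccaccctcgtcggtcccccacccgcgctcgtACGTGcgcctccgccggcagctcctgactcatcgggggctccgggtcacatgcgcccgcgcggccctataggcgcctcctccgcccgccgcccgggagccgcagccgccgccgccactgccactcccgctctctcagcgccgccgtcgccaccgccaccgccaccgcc
PFKFB4: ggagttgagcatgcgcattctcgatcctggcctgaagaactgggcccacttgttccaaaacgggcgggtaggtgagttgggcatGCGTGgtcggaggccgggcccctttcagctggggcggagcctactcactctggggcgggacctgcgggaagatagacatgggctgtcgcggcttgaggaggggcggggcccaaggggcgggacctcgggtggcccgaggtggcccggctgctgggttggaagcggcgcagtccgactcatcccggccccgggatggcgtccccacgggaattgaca
The ALDOC window held 3 ACGTG, of which 2 are the overlapping matches of both strands within the 1 CACGTG that opens the capitals, and 2 GCGTG. The ENO2 window held 1 ACGTG and the PFKFB4 window 1 GCGTG. HK1, which also rose, had 7 starts and no ACGTG in any of their windows. A GCGTG lay only in its windows at chr10:69317931-69318230 and chr10:69318814-69319113. PDK1 had 2 starts, with 2 ACGTG in the window at chr2:172555840-172556139 and neither core in the other. On both strands together, the core ACGTG (reverse complement CACGT) was present for 17 of the 29 genes and for 24.9% of the 27305 genes in the table. The core GCGTG (reverse complement CACGC) was present for 20 of 29 and for 40.6% of all genes. The E-box CACGTG, which overlaps the first core, was present for 7 of 29 and for 8.77% of all genes. Either core was found for 26 of the 29 genes and for 52.4% of all genes. By single windows, which number 53 for these genes, 64.15% of theirs and 48.4% of all 35116 held either core. A match of letters is a description and not a measured binding site.

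Over both days, 6 of the 30 tested genes rose in hairpin #10 against scramble and none was called lower. They were HK1, PPP1R3B, ALDOC, ENO2, PFKFB4 and PDK1, by 1.89 to 3.21 log2. PPP1R3B passed the low-signal filter through its hairpin arrays alone, its scramble mean of 5.76 log2 being under it. Its probe set was also the brightest only through those arrays, and a second set changed by -0.36 log2 in #10. Its call is therefore counted but is no support for a rise. Hairpin #3 had 2 genes called higher, ALDOC and HK1, and hairpin #1 had 0, with 0 of its 30 genes at an unadjusted p under 0.05. These tests were made with limma on log2 signals, with construct and day as terms and Benjamini-Hochberg adjustment over all 12845 tested genes, and a gene was called at an adjusted p under 0.05. Of all tested genes, 2.01% were called in #10 (1.69% higher), 0.0311% in #3, all of them higher, and 0% in #1, where 171 of 12845 had an unadjusted p under 0.05. The median change of the 30 genes was 0.33 log2 in #10, 0.37 in #3 and -0.00 in #1, beside -0.09, -0.07 and -0.02 over all tested genes. The 4 genes called in #3 among all 12845 were ALDOC, HK1, MXI1 and NDRG1, the last pair known to be induced by hypoxia. The 3 comparisons share the scramble arrays, so their values are set side by side and not counted against each other.

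Those counts rested on few arrays. Without the arrays labelled shCDK2 #3 at day 2 and scramble at day 5, 11 of 30 genes were called in #10, beside 16.01% of all tested genes, 5 in #3, beside 4.305%, and 0 in #1. Without the scramble array of day 2, or without that of day 5, no gene was called in #10 or #3, in the list or among all tested genes. Without the array of #3 at day 2 or at day 5, 11 were called in #10, beside 7.474% of all tested genes. Without #3 at day 2, 6 were called in #3, beside 1.658%, and without #3 at day 5 none was. Without the array of #10 at day 2 or at day 5, 5 were called in #3, beside 0.2102%. Every called change kept its sign under each setting tried.

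**Figure D1:**
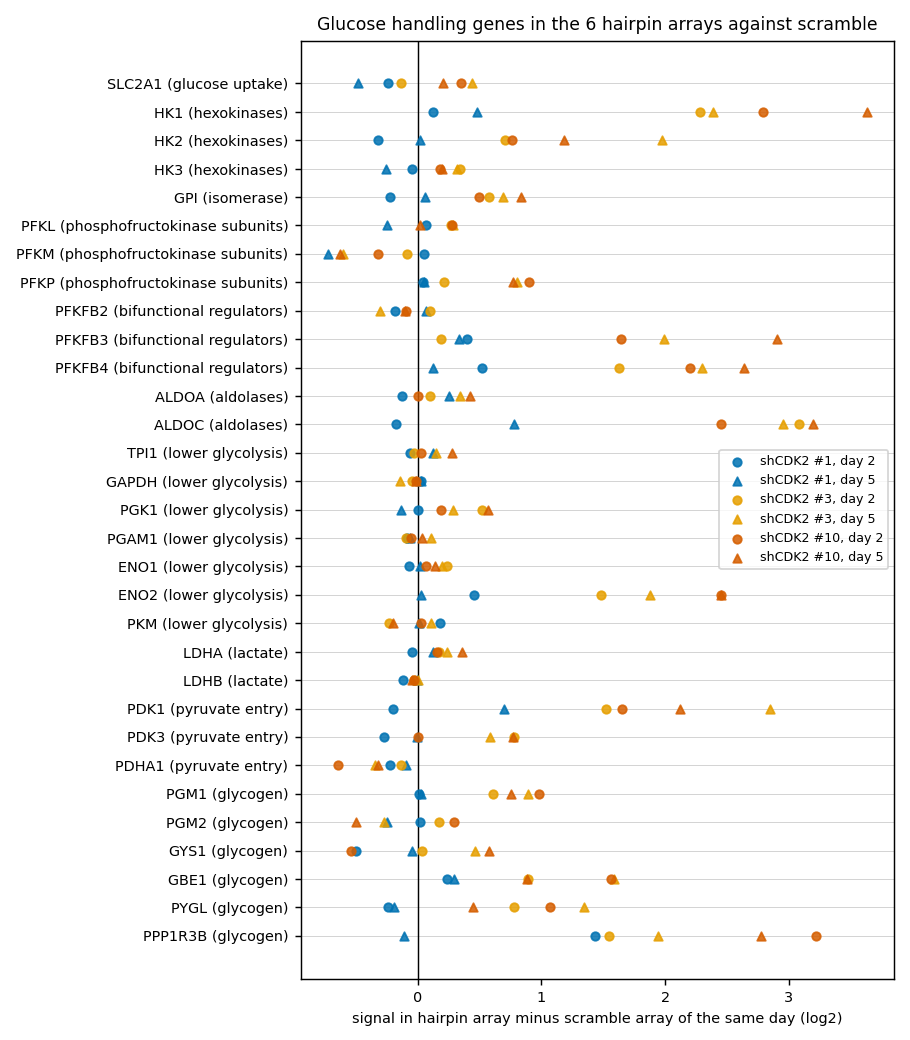
Signal of each hairpin array minus the scramble array of the same day (log2, x axis) for the 31 genes in pathway order (y axis), with colour for the hairpin and circles for day 2, triangles for day 5. Points of #3 and #10 lie past 1 log2 on both days for HK1, PFKFB4, ALDOC, ENO2, PDK1 and PPP1R3B, while those of #1 stay under 1 log2 except PPP1R3B at day 2 (1.44).

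Array by array, the number of the 30 genes more than 1 log2 above the same-day scramble was 1 in #1, 6 in #3 and 9 in #10 at day 2, and 0, 10 and 8 in the same order at day 5. CDK2 as a share of the same-day scramble followed that order only in part. At each day the array with the lowest share had the most such genes, namely #10 at day 2 (33.95%) and #3 at day 5 (72.3%). The other arrays did not follow it. At day 2, #10 had ALDOC 2.45 and HK1 2.79 log2 above scramble. A link between CDK2 and these genes was not tested. The array labelled #3 at day 2, with CDK2 at 95.03% of scramble, had ALDOC 3.08 log2 and HK1 2.28 log2 above scramble. The array of #1 at day 2, with CDK2 at 39.9%, had ALDOC -0.17 and HK1 0.13 log2 from scramble. The array of #10 at day 5 had ALDOC 3.19 and HK1 3.63 log2 above scramble. Its CDK2 was at 92.9% of the day 5 scramble array, which was itself at 53.2% of scramble at day 2. That CDK2 signal was 8.08 log2, against 9.10 in scramble at day 2. Across the 6 hairpin arrays, 7 of the 30 genes were above scramble in every array, namely HK1, PFKP, PFKFB3, PFKFB4, ENO2, PGM1 and GBE1, and PDHA1 was below scramble in every array.

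Glucose enters through SLC2A1, the transporter GLUT1, which did not pass the test. Its signal was 10.19, 10.29 and 10.78 log2 in #1, #3 and #10 at day 2, against 10.43 in scramble, and 9.44, 10.36 and 10.13 at day 5, against 9.92 in scramble. The hairpin arrays lay on both sides of scramble at each day. The change over both days was 0.28 log2 in #10, 0.15 in #3 and -0.36 in #1.

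Hexokinases phosphorylate glucose and trap it in the cell. HK1, the broadly expressed form that docks on mitochondria, read 7.14, 9.29 and 9.80 log2 in #1, #3 and #10 at day 2, against 7.01 in scramble, and 7.54, 9.45 and 10.70 at day 5, against 7.06 in scramble. The arrays of #3 and #10 stood well above both scramble arrays on both days, and those of #1 lay just above them. The probe set used was the brightest only through hairpin arrays. A set brighter in both scramble arrays changed by 2.22 log2 in #10 and 1.15 in #3, so the size of the rise depends on the set. By the set used, HK1 rose by 3.21 log2 in #10 (SE 0.24, limma adjusted p = 0.0133), a 9.26-fold difference with a 95% interval of 6.31 to 13.6. In #3 it rose by 2.33 log2 (SE 0.24, limma adjusted p = 0.0467), or 5.04-fold (3.44 to 7.40), and in #1 the change was 0.30 log2 (SE 0.24, limma adjusted p = 1.000).

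HK2, the inducible hexokinase, read 9.53, 10.55 and 10.61 log2 in #1, #3 and #10 at day 2, against 9.84 in scramble, and 8.87, 10.82 and 10.03 at day 5, against 8.85. Hairpins #3 and #10 were above scramble at each day and #1 was not at day 2. The change was 0.97 log2 in #10 (SE 0.29, limma adjusted p = 0.124) and 1.34 in #3 (SE 0.29, limma adjusted p = 0.2403), so it passed the test in neither. HK3, a hexokinase of white blood cells, moved by 0.19 log2 in #10 (SE 0.17, limma adjusted p = 0.616) and 0.33 in #3 (SE 0.17, limma adjusted p = 0.597), with all 8 arrays between 7.39 and 7.96 log2. Whether HK1 changed more than HK2 or HK3 was not tested.

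GPI turns glucose 6-phosphate into fructose 6-phosphate. It read 11.29, 12.08 and 12.003 log2 in #1, #3 and #10 at day 2, against 11.51 in scramble, and 11.19, 11.82 and 11.96 at day 5, against 11.13. The arrays of #3 and #10 lay above both scramble arrays, and those of #1 lay within their range. The change of 0.66 log2 in #10 (limma adjusted p = 0.101) and 0.63 in #3 (limma adjusted p = 0.360) did not pass.

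Phosphofructokinase, the main control point of the pathway, is built from liver (PFKL), muscle (PFKM) and platelet (PFKP) subunits, none of which was called in any comparison. PFKP read 10.21, 10.38 and 11.07 log2 in #1, #3 and #10 at day 2, against 10.16 in scramble, and 9.84, 10.59 and 10.55 at day 5, against 9.78. It was above the same-day scramble in all 6 hairpin arrays, by 0.04 to 0.90 log2, and its change was 0.84 log2 in #10 (SE 0.22, limma adjusted p = 0.0934) and 0.51 in #3 (SE 0.22, limma adjusted p = 0.528). PFKL changed by 0.15 log2 in #10 (SE 0.18, limma adjusted p = 0.714). PFKM lay near the filter, at 5.54 to 6.14 log2 in hairpin arrays and 6.09 and 6.26 in scramble, and its change in #10 was -0.47 log2 (SE 0.22, limma adjusted p = 0.288). At day 5 all 3 hairpins were 0.61 to 0.72 log2 below scramble in PFKM (limma adjusted p = 0.913).

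The bifunctional PFKFB enzymes make and break fructose 2,6-bisphosphate. PFKFB4 read 9.45, 10.56 and 11.13 log2 in #1, #3 and #10 at day 2, against 8.93 in scramble, and 8.48, 10.65 and 10.99 at day 5, against 8.35. Every hairpin array was above the scramble array of its day, #1 least. By the probe set used, PFKFB4 rose by 2.42 log2 in #10 (SE 0.27, limma adjusted p = 0.0154), or 5.34-fold (95% interval 3.46 to 8.24). Its other, dimmer probe sets changed by 0.49, 0.15 and -0.28 log2 in #10. In #3 the change was 1.96 log2 (SE 0.27, limma adjusted p = 0.0920), and in #1 it was 0.32.

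PFKFB3, the form with the strongest kinase over phosphatase activity, missed the threshold in #10 at 2.27 log2 (SE 0.45, limma adjusted p = 0.0517). Its signal was 9.69, 9.48 and 10.93 log2 in #1, #3 and #10 at day 2, against 9.29 in scramble, and 9.32, 10.97 and 11.89 at day 5, against 8.99. In #3 it stood 0.19 log2 above scramble at day 2 and 1.99 at day 5, for a change over both days of 1.09 (SE 0.45, limma adjusted p = 0.515). PFKFB2, a form prominent in heart, stayed between 5.46 and 5.89 log2 in hairpin arrays, against 5.64 and 5.83 in scramble.

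Aldolase cleaves fructose 1,6-bisphosphate. ALDOC, the form best known from brain, read 9.18, 12.44 and 11.81 log2 in #1, #3 and #10 at day 2, against 9.36 in scramble, and 9.29, 11.46 and 11.71 at day 5, against 8.51. The 4 arrays of #3 and #10 lay above 11 log2, while those of #1 lay within the range of the scramble arrays. ALDOC rose by 3.02 log2 in #3 (SE 0.29, limma adjusted p = 0.0444), or 8.09-fold (95% interval 5.04 to 12.97). In #10 it rose by 2.82 log2 (SE 0.29, limma adjusted p = 0.0133), or 7.07-fold (4.41 to 11.3), and in #1 the change was 0.30 (SE 0.29).

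ALDOA, the aldolase of muscle and most other cells, read 13.71 to 14.01 log2 in hairpin arrays, against 13.83 and 13.59 in scramble. Its change was 0.22 log2 in #10 (SE 0.19, limma adjusted p = 0.599) and 0.22 in #3 (SE 0.19, limma adjusted p = 0.706).

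By the probe sets used, the enzymes from triose phosphate to pyruvate moved little apart from ENO2. Most of these signals were bright, and saturation was not measured. TPI1, which interconverts the triose phosphates, read 13.36 to 13.62 log2 in hairpin arrays, against 13.42 and 13.34 in scramble. GAPDH, the dehydrogenase that makes NADH, was read by a control probe set of the array and stood at 14.33 to 14.51 log2, against 14.48 and 14.48 in scramble. PGAM1, the mutase of phosphoglycerate, lay between 13.83 and 14.004 log2, against 13.97 and 13.89. PKM, pyruvate kinase, lay between 9.10 and 9.56 log2, against 9.33 and 9.45. In #10 these 4 genes changed by 0.15 (TPI1), -0.02 (GAPDH), -0.01 (PGAM1) and -0.08 log2 (PKM), with adjusted p of 0.692 to 0.980 in limma.

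PGK1, the first ATP-yielding enzyme of the pathway, read 13.45, 13.97 and 13.64 log2 in #1, #3 and #10 at day 2, against 13.45 in scramble, and 13.38, 13.80 and 14.09 at day 5, against 13.51. Its changes of 0.38 log2 in #10 (limma adjusted p = 0.360) and 0.40 in #3 (limma adjusted p = 0.588) did not pass the test. The array carries 9 probe sets of PGK1, and all stood above scramble in both hairpins, by 0.33 to 0.71 log2 in #10 and 0.33 to 0.85 in #3.

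Enolase makes phosphoenolpyruvate. ENO2, the form known from neurons, read 7.51, 8.53 and 9.501 log2 in #1, #3 and #10 at day 2, against 7.05 in scramble, and 7.03, 8.89 and 9.46 at day 5, against 7.01. The order #10, #3, #1, scramble held at both days, with #1 and scramble almost level at day 5. ENO2 rose by 2.45 log2 in #10 (SE 0.23, limma adjusted p = 0.0133), or 5.46-fold (95% interval 3.79 to 7.87). In #3 the change was 1.68 log2 (SE 0.23, limma adjusted p = 0.0920). ENO1, the general enolase, changed by 0.11 log2 in #10 (SE 0.17, limma adjusted p = 0.784) and 0.22 in #3 (SE 0.17, limma adjusted p = 0.694).

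**Figure D2:**
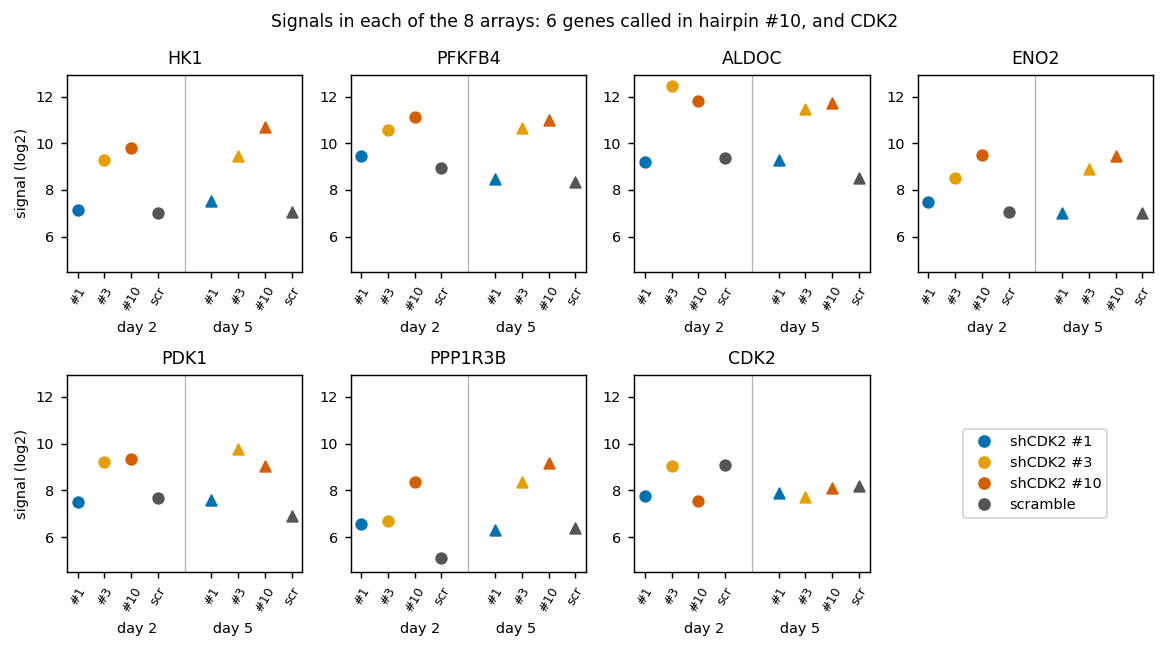
Signal (log2, y axis) of the 6 genes called in hairpin #10 and of CDK2 in each of the 8 arrays (x axis, hairpins #1, #3 and #10 and then scramble at each day). In the 6 gene panels #10 and #3 lie above #1 and scramble on both days, while in the CDK2 panel #1 and #10 are low at day 2 (7.78 and 7.54, against 9.10 in scramble) and #3 is not (9.03).

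Lactate dehydrogenase is a tetramer of LDHA and LDHB subunits. LDHA read 14.09, 14.31 and 14.29 log2 in #1, #3 and #10 at day 2, against 14.14 in scramble, and 14.15, 14.26 and 14.38 at day 5, against 14.02. LDHA changed by 0.26 log2 in #10 (SE 0.17, limma adjusted p = 0.482) and 0.21 in #3 (SE 0.17, limma adjusted p = 0.705). Its 4 probe sets all stood above scramble, by 0.26 to 0.49 log2 in #10 and 0.21 to 0.47 in #3. LDHB changed by -0.04 log2 in #10 (SE 0.17, limma adjusted p = 0.926) and -0.01 in #3 (SE 0.17, limma adjusted p = 0.980), with all arrays between 13.93 and 14.08.

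Entry of pyruvate into mitochondrial oxidation is blocked when pyruvate dehydrogenase kinases phosphorylate PDHA1, the catalytic subunit of pyruvate dehydrogenase. PDK1 read 7.48, 9.20 and 9.33 log2 in #1, #3 and #10 at day 2, against 7.68 in scramble, and 7.60, 9.75 and 9.02 at day 5, against 6.90. Both arrays of #3 and of #10 were above both scramble arrays, and those of #1 fell within the scramble range. PDK1 rose by 1.89 log2 in #10 (SE 0.30, limma adjusted p = 0.0392), or 3.70-fold (95% interval 2.26 to 6.05). The change in #3 was 2.19 log2 (SE 0.30) and did not pass (limma adjusted p = 0.0920).

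PDK3, a second kinase of the family, changed by 0.39 log2 in #10 (SE 0.25, limma adjusted p = 0.464) and 0.68 in #3 (SE 0.25, limma adjusted p = 0.462). PDHA1 read 10.70, 10.79 and 10.28 log2 in #1, #3 and #10 at day 2, against 10.92 in scramble, and 10.78, 10.54 and 10.56 at day 5, against 10.88. All 6 hairpin arrays lay under the scramble arrays, by 0.09 to 0.64 log2, and the change of -0.48 log2 in #10 (limma adjusted p = 0.223) did not pass.

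Among the genes of glycogen, PPP1R3B, which brings protein phosphatase to glycogen and favours its synthesis, was called higher in #10, with a fitted change of 3.00 log2 (SE 0.41, limma adjusted p = 0.0234). Its signal was 6.56, 6.67 and 8.34 log2 in #1, #3 and #10 at day 2, against 5.12 in scramble, and 6.28, 8.34 and 9.17 at day 5, against 6.395. The scramble arrays differed by 1.27 log2 between days, and their mean of 5.76 log2 lay under the low-signal filter, so no fold is given. A second probe set, brighter in scramble, changed by -0.36 log2 in #10. In #3 the change was 1.75 log2 (SE 0.41, limma adjusted p = 0.269) and in #1 0.66.

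GBE1, the branching enzyme, read 10.32, 10.98 and 11.65 log2 in #1, #3 and #10 at day 2, against 10.08 in scramble, and 9.97, 11.26 and 10.57 at day 5, against 9.68. PYGL, the glycogen phosphorylase of liver and white blood cells, read 9.78, 10.79 and 11.09 at day 2, against 10.02, and 9.57, 11.11 and 10.21 at day 5, against 9.77. For both genes #10 was above #3 at day 2 and below it at day 5. GBE1 changed by 1.22 log2 in #10 (limma adjusted p = 0.0825) and 1.24 in #3 (0.280), and PYGL by 0.76 in #10 (0.179) and 1.06 in #3 (0.318), so neither passed.

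PGM1, the phosphoglucomutase that links glycogen to glycolysis, read 8.72, 9.31 and 9.68 log2 in #1, #3 and #10 at day 2, against 8.70 in scramble, and 8.30, 9.17 and 9.03 at day 5, against 8.28. It changed by 0.87 log2 in #10 (SE 0.19, limma adjusted p = 0.0694) and 0.75 in #3 (SE 0.19, limma adjusted p = 0.307), and by 0.02 in #1. PGM2, which works mainly on pentose phosphates, changed by -0.10 log2 in #10 (SE 0.22, limma adjusted p = 0.847) and -0.05 in #3 (SE 0.22, limma adjusted p = 0.938). PGM2 was above scramble in all 3 hairpins at day 2, by 0.02 to 0.30 log2, and below it in all 3 at day 5, by 0.25 to 0.50, but the difference of the day effects did not pass (-0.50 log2, SE 0.30, limma adjusted p = 1.000). GYS1, glycogen synthase, changed by 0.02 log2 in #10 and 0.25 in #3, with #10 at -0.54 from scramble at day 2 and 0.57 at day 5.

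**Figure D3:**
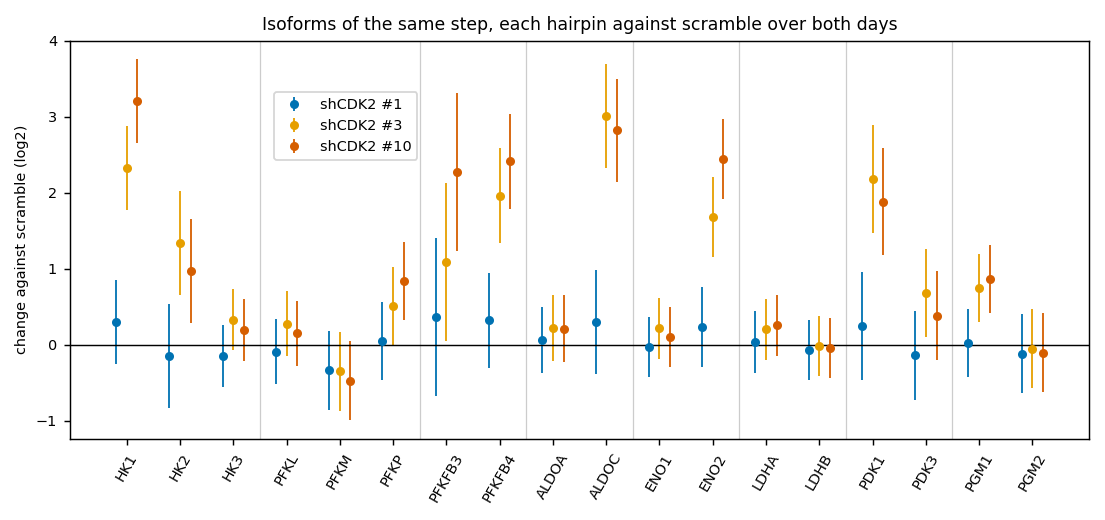
Change of each hairpin against scramble over both days (log2, y axis) for forms of the same step (x axis, steps parted by lines), with points for the fitted change and bars for its 95% interval. HK1, ALDOC, ENO2, PFKFB4 and PDK1 stand at 1.68 log2 or more in #3 and #10, while ALDOA, ENO1, LDHA, LDHB, HK3 and PFKL stay within 0.34 log2 of 0 in all 3 hairpins.

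By step, then, the calls in #10 were 1 of 3 hexokinases, 1 of 2 tested bifunctional regulators and 1 of 2 aldolases. They also took in 1 of 7 genes from triose phosphate to pyruvate, 1 of 3 genes of pyruvate entry and 1 of 6 genes of glycogen (PPP1R3B). All were higher, beside 2.01% of all tested genes called (1.69% higher). None of the 3 phosphofructokinase subunits, the 2 lactate dehydrogenase subunits, the isomerase or the transporter was called. With 1 call in each such small group, the counts single out no step. The other probe sets of PFKFB4 and PPP1R3B did not rise alike. Of the 30 genes, 17 changed by less than 0.5 log2 in #10, 16 in #3 and 29 in #1. Levels of different genes are read by different probes and were not compared, and no difference between forms of a step was tested.

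Hairpins also differed from each other. In #10 against #1, 4 of 30 genes were called and all were higher, beside 0.327% of all tested genes (0.319% higher). They were HK1 by 2.91 log2 (limma adjusted p = 0.0389), ALDOC by 2.52 (0.0424), ENO2 by 2.21 (0.0424) and PFKFB4 by 2.09 (0.0438). For HK1 and PFKFB4 these hold for the probe set used, with the limits given below. In #3 against #1, and in #10 against #3, 0 of 30 genes were called, beside 0% of all tested genes in each, with 13 and 4 of the 30 genes at an unadjusted p under 0.05, the 4 being ENO2, HK1, PFKFB3 and PPP1R3B. Of all tested genes, 1541 and 740 of 12845 had such a p in these comparisons. The median difference of the 30 genes was 0.48 log2 for #10 over #1, 0.50 for #3 over #1 and -0.02 for #10 over #3. Without the arrays labelled shCDK2 #3 at day 2 and scramble at day 5, 13 genes were called in #10 against #1, beside 11.96% of all tested genes, and 12 in #3 against #1, beside 18.12%. Leaving out the array of #1 at day 5, of #10 at day 5 or of scramble at either day left 0 calls in #10 against #1, and leaving out an array of #3 gave 10, beside 4.764% of all tested genes. In #3 against #1, 7 were called without #3 at day 2, beside 3.62%, and 2 without an array of #10, beside 0.1246%.

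With the 3 hairpins pooled, no gene was called at day 2 or at day 5, beside 0% of all tested genes at each day. At an unadjusted p under 0.05, limma gave 0 of the 30 genes at day 2 and 1 at day 5, PFKM, and 442 and 171 of all tested genes. The hairpins spread widely here, as for ALDOC, whose pooled change was 1.79 log2 at day 2 (SE 1.34) and 2.31 at day 5 (SE 1.34). Day 5 against day 2 within the hairpins also gave 0 calls in the list and 0% of all tested genes, with PFKM the 1 gene of the 30 at an unadjusted p under 0.05. The median of that change over the 30 genes was -0.00 log2. The change of the hairpin effect between the days gave 0 calls in the 30 genes, and 0 of them had an unadjusted p under 0.05.

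Other probe sets of the same gene did not always move alike. The 31 genes had 94 probe sets, and 22 genes had more than 1. All 4 probe sets of HK1 stood above scramble in #10, by 1.01 to 3.21 log2, as did all 5 of ALDOC, by 1.35 to 2.82, and both of PDK1, by 1.49 and 1.89. For PPP1R3B the second probe set changed by -0.36 log2 in #10, against 3.00 for the one used. In both scramble arrays the second set was the brighter, at 5.996 and 6.53 log2, against 5.12 and 6.395 for the set used. The set used was thus the brightest only through hairpin arrays, and the same held for HK1. A second HK1 set read 7.46 and 7.58 log2 in scramble, against 7.01 and 7.06, and changed by 2.22 in #10 and 1.15 in #3. The other 3 probe sets of PFKFB4 changed by 0.49, 0.15 and -0.28, against 2.42, and the other 3 of PFKFB3 by -0.05 to 0.15, against 2.27. The second probe set of HK2 changed by -0.20 in #10 and -0.14 in #3. ENO2 had a single probe set. The probe set used had a name ending in _x_at for 8 of the 31 genes and in _s_at for 5, endings that mark probes which may match other transcripts, other genes of a family included.

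**Figure D4:**
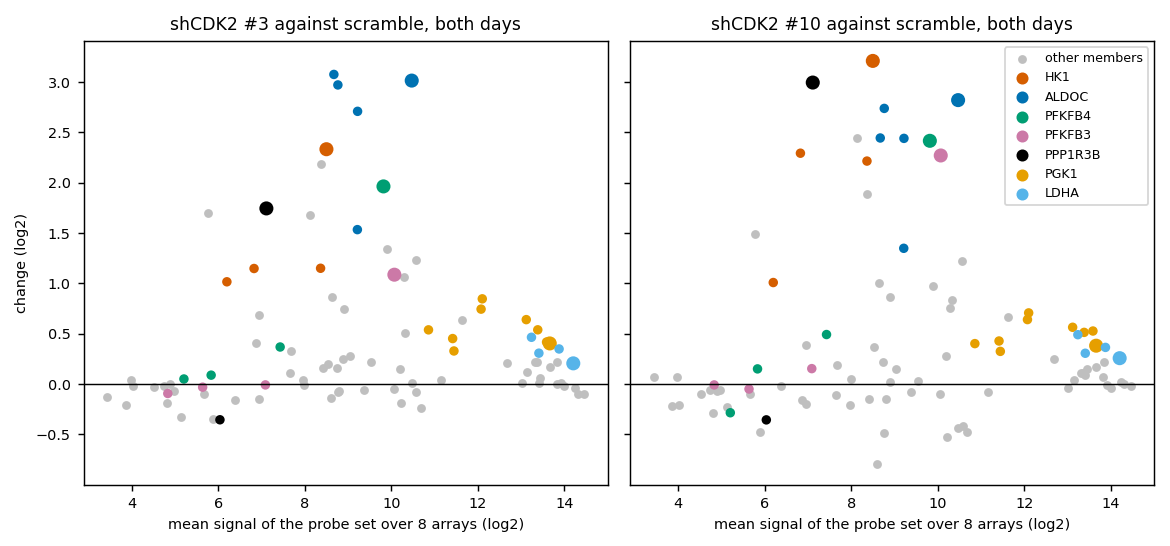
Every probe set of the 31 genes by its mean signal over the 8 arrays (log2, x axis) and its change in hairpin #3 (left) and #10 (right) over both days against scramble (log2, y axis), with 7 genes in colour and the probe set used drawn larger. The 5 probe sets of ALDOC and the 4 of HK1 all lie above 1 log2 in both panels, whereas the dimmer sets of PFKFB4, PFKFB3 and PPP1R3B lie below 0.5 log2.

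A further 60 genes of glucose transport, the pentose phosphate route, pyruvate oxidation and glycogen were listed, of which 54 were on the array and 43 were tested. None was called in any comparison over all arrays. Without the arrays labelled shCDK2 #3 at day 2 and scramble at day 5, 5 were called in #10 (1 higher), 1 in #3 (DLD, lower) and 0 in #1, and between hairpins 3 in #10 against #1, 6 in #3 against #1 and 0 in #10 against #3, beside the shares of all tested genes given above for that setting. With all arrays, in #10, 6 of the 43 had an unadjusted p under 0.05 by limma and the median change was 0.01 log2, in #3 these were 3 (PYGB, SLC2A13 and UGP2) and 0.06, and in #1 they were 1 (DLD) and -0.01. Of all 12845 tested genes, 2599 had such a p in #10, 1216 in #3 and 171 in #1. The 4 with the highest signal were TALDO1, TKT, DLD and UGP2. TALDO1 and TKT, the transaldolase and transketolase of the pentose phosphate route, changed by -0.55 and -0.23 log2 in #10, and UGP2, which makes UDP-glucose for glycogen, by 0.67. DLD, the shared E3 subunit of pyruvate dehydrogenase, read 9.75, 11.46 and 9.89 log2 in #1, #3 and #10 at day 2, against 11.57 in scramble, and 11.49, 11.72 and 11.58 at day 5, against 11.67. It was low in #1 and #10 at day 2, the 2 arrays with CDK2 at 39.9% and 33.95% of scramble, and its change over both days was -1.01 log2 in #1 and -0.89 in #10 (SE 0.43 each, limma adjusted p = 1.000 and 0.304).

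Genes known to be induced by hypoxia outside glycolysis were set beside the list, 16 of 20 on the array being tested. SPAG4, called in #10, passed the low-signal filter through hairpin arrays alone, its scramble arrays reading 4.88 and 5.33 log2. In #10, 10 of 16 were called higher, in #3 2 (MXI1 and NDRG1) and in #1 0, with medians of 2.00, 1.75 and 0.33 log2. Of all tested genes, 2.01% were called in #10, 0.0311% in #3 and 0% in #1. For this list and those below, the shares of the fit without the 2 arrays are the ones given above. Without the arrays labelled shCDK2 #3 at day 2 and scramble at day 5, 13 were called in #10, 12 in #3 and 0 in #1, all higher. BNIP3, a mitophagy receptor, read 10.78, 12.24 and 12.84 log2 in #1, #3 and #10 at day 2, against 10.70 in scramble, and 10.58, 12.12 and 12.62 at day 5, against 9.33. NDRG1, a stress-induced gene, read 9.498, 10.80 and 11.28 at day 2, against 8.68, and 9.20, 11.08 and 11.28 at day 5, against 8.80. The summed linear signal of the list was 11043, 24419 and 37920 in #1, #3 and #10 at day 2, against 9237 in scramble, and 8991, 30618 and 30785 at day 5, against 6866. By the fitted change, 15 of the 16 lay above scramble in #10 and 14 in #3. VEGFA lay below it in both, at -0.12 log2 in #10 and -0.15 in #3, and CA12 lay below it in #3. The part of this wider group in the changes of the glucose genes was not tested.

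Of 11 tested factors and regulators of glucose genes, 1 was called in #10, TXNIP, beside 2.01% of all tested genes. In #3 and #1 0 were called, beside 0.0311% and 0%. TXNIP is an inhibitor of glucose uptake whose own transcription answers to glucose. It read 10.06, 10.82 and 12.60 log2 in #1, #3 and #10 at day 2, against 9.26 in scramble, and 9.37, 12.04 and 12.13 at day 5, against 9.64. TXNIP rose by 2.92 log2 in #10 (SE 0.42, limma adjusted p = 0.0282). Without those 2 arrays, 2 of the 11 were called in #10 (HIF1A and TXNIP), 1 in #3 (TXNIP) and 0 in #1. HIF1A, the oxygen-regulated subunit of the hypoxia-inducible factor, changed by 0.78 log2 in #10 (SE 0.37, limma adjusted p = 0.294) and MYC by -0.41 (SE 0.17, limma adjusted p = 0.238).

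Markers of other myeloid states moved on some of the same arrays. Their called counts stand beside 2.01% of all tested genes in #10, 0.0311% in #3 and 0% in #1. Of 9 tested genes of granulocyte maturation, 2 were called higher in #10, CAMP and MMP9 (named, like CD68 and CD3D, after their values were seen), with a median of 1.07 log2, against 0.77 in #3 and 0.07 in #1. Linear signals of the 13 listed genes present summed to 5113, 3732 and 15351 in #1, #3 and #10 at day 2 (scramble 3779). At day 5 they summed to 6802, 23821 and 18646, against 6073. MMP9 weighed heavily in these sums, at 13.77 log2 in #3 and 13.75 in #10 at day 5, against 11.31. Of the 9 tested genes, 8, 5 and 9 were above scramble in #1, #3 and #10 at day 2. At day 5 these were 3, 8 and 5, with CYBB, S100A8, CXCR2 and CSF3R below scramble in #10. LTF, which defines secondary granules, read 4.79 to 5.24 log2 over the 8 arrays. Without the arrays labelled shCDK2 #3 at day 2 and scramble at day 5, 4 of the 9 were called in #10 and 4 in #3, all higher, and 0 in #1. Of 5 tested monocyte and macrophage genes 1 was called in #10, CD68. CD14 and CD163 were tested through hairpin arrays alone, with scramble arrays at 5.19 and 5.15 log2 and at 4.57 and 4.86. The monocyte and macrophage list summed to 482, 487 and 684 in #1, #3 and #10 at day 2, against 431 in scramble. At day 5 it summed to 496, 1318 and 4259, against 506. Of the 5 tested promyelocyte genes, 3 tested erythroid genes and 5 tested fibroblast and epithelial genes none was called in #1, #3 or #10, and of 6 tested lymphoid genes CD3D was called in #10. Without those 2 arrays, no monocyte gene was called in #1, #3 or #10, while 2 lymphoid genes were called higher (CD3D and NKG7) and 2 promyelocyte genes lower (CTSG and PRTN3) in #10. The part of cell state in the changes of the glucose genes was not tested.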

How the data were processed

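Total RNA of 8 NB4 samples was hybridised to Affymetrix arrays, 1 per construct and day. The authors deposited 1 value per probe set and sample, taken here as log2 signals from their range. Partek is named in the submitters' processing notes without a version, and how the arrays were normalized is not given in the sources. No array file with scanner intensities was used here, so detection and saturation were not measured, and precision is limited by the small number of arrays.

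Of 49395 probe sets, 44994 had 1 gene in the platform annotation, 1832 several and 2569 none. Symbols were updated through a RefSeq gene table that held 44967 of them. A gene was represented by its brightest probe set, and a gene was tested if its mean exceeded 5.83 log2, which is percentile 40 over all probe sets. Values were used as deposited.

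limma 3.58.1 in R 4.3.3 was run in 2 fits over all 12845 tested genes, two-sided, with Benjamini-Hochberg adjusted p under 0.05. Each hairpin against scramble and each pair of hairpins came from a model with construct and with day (residual degrees of freedom 3, prior 4.54), so the 2 days served as repeats of a construct. The days came from a mean per arm and day (residual degrees of freedom 4, prior 3.13), with the lone scramble array of a day assumed to vary like hairpin arrays. The code was tested on simulated data. All 34 genes are named, full statistics go to called genes and to forms of a step, and among the other pathway genes the called ones or else the 4 with the highest mean are named. The genes and lists were chosen with earlier results of these data known. Alternatives were quantile normalization, median centring, the mean of the probe sets, no low-signal filter, a prior variance following the signal, leaving out arrays, and construct as a block.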

Additional observations from a re-analysis of the deposited data

Results flagged for a closer look

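A test of the difference itself singled out 4 genes in which hairpins #10 and #1 did not act alike, although both target CDK2. HK1 was 2.91 log2 higher in #10 than in #1 (SE 0.24), ALDOC 2.52 (SE 0.29), ENO2 2.21 (SE 0.23) and PFKFB4 2.09 (SE 0.27), with limma adjusted p of 0.0389, 0.0424, 0.0424 and 0.0438. In each of the 4 genes #10 was above #1 at both days. The HK1 probe set used was the brightest only through hairpin arrays. Other probe sets of PFKFB4 changed by 0.49, 0.15 and -0.28 log2 in #10 against scramble. CDK2 itself read 7.54 log2 in #10 and 7.78 in #1 at day 2, and 8.08 in #10 and 7.89 in #1 at day 5.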

How the results depend on the processing

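The 12 called changes of single genes kept their sign in all 188 alternatives. Counts of called genes moved more. In #3 against scramble, with 2 called, quantile normalization gave 1, median centring 0 and the mean of the probe sets 0, leaving out both arrays of #10 gave 5 (0.2102% of all tested genes), and leaving out 1 array at a time gave 0 to 6 (at most 1.658%). In #10 against scramble, with 6, leaving out both arrays of #3 gave 11 (7.474%) and single arrays 0 to 11. In #10 against #1, with 4, median centring gave 0, leaving out both arrays of #3 gave 10 (4.764%) and single arrays 0 to 10. In #3 against #1, with 0, leaving out both arrays of #10 gave 2 (0.1246%) and single arrays 0 to 7 (at most 3.62%). Leaving out the array labelled shCDK2 #3 at day 2 and the one labelled scramble at day 5 together, an alternative chosen after seeing the data, gave 5, 11, 13 and 12 in the same order, with 4.305%, 16.01%, 11.96% and 18.12% of all tested genes. A construct left with 1 array adds nothing to the estimate of the spread, which is how leaving out #3 or #10 acts on the other constructs. The change of PFKFB4 in #10 ranged from 0.69 log2, with the mean of its probe sets, to 2.59, and that of PPP1R3B from 1.32 to 3.50. For #1, #10 against #3, each day, and day 5 against day 2, every alternative run gave 0 calls; a day could not be compared without its scramble array. Construct as a replicate block gave 0 calls at day 2 and day 5 (random, correlation 0.275) and 0 for day 5 against day 2 (fixed). The same hairpin's deviations at the 2 days correlated at 0.72 in #1, -0.23 in #3 and 0.43 in #10. Those of #10 at day 2 correlated at 0.57 with those of #3 at day 5. Other pairs of unlike numbers lay between -0.75 and 0.32. The main comparisons by day therefore did not pair the samples by hairpin number. The fit with construct and day, which gave all 12 calls, did match the 2 arrays of a number as repeats, and these correlations limit it.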
